A study of Mus musculus with 21 samples.

Results

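The time-of-day difference examined here is that between evening and morning in IgA+ plasma cells (IgA+ PCs) of the small intestine that lack Bmal1. It compares 5 libraries labelled KO_ZT12 with 4 labelled KO_ZT0, which are 9 of the 21 libraries of the series. Of the 53801 genes in the table, 20256 reached a summed count of 10 over the series, and all of these were tested. Zeitgeber time (ZT) counts hours from lights on under a 12h:12h light:dark cycle, so ZT0 is the start of the light phase and ZT12 the start of the dark phase. Membership follows the column names and titles, because in 8 of these 9 samples the genotype field names the control genotype.

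The knockout mice were Mb1Cre+/- x Arntl fl/fl, and the controls were 6 Mb1Cre-/- x Arntl fl/fl littermates at ZT0 and 6 at ZT12, all on a C57BL/6 background. Both genotypes carry the floxed Arntl alleles, and only the knockout carries Cre, which replaces part of the Mb1 (Cd79a) locus and acts in the whole B cell lineage from early development. Mice were co-housed and fed ad libitum, their age is not given in the labels, and each library was made from sorted CD138+ IgA+ cells. The study describes the libraries as individual animals, and the labels name them only as replicates. Poly-A RNA was sequenced, and read counts per gene were normalised here to CPM, counts scaled to a common library size, with the TMM method of edgeR.

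Bmal1, encoded by Arntl, pairs with CLOCK to activate genes with an E-box, among them Nr1d1, Per and Cry genes, whose products feed back on Bmal1 and CLOCK. Plasma cells secrete large amounts of antibody and depend on the endoplasmic reticulum (ER) for folding it. Sterol and fatty acid synthesis supply their membranes and are controlled by SREBP transcription factors, which are released from the ER when sterols are low.

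Arntl itself was counted over the whole gene, so reads outside the deleted part are included. It lay at 4.51, 4.08, 6.47 and 4.42 CPM in the knockout ZT0 libraries and at 3.39, 4.93, 3.97, 4.06 and 3.11 CPM at ZT12. These values overlap, and the fitted log2 difference was -0.32 ± 0.18 (SE). ZT0 replicate 3 was the highest, and the difference was -0.16 without it and -0.09 without it and ZT12 replicate 5. In control mice Arntl averaged 7.80 CPM in the morning (SD 0.53) and 4.54 CPM in the evening (SD 0.55, n = 6 each), a log2 difference of -0.78 ± 0.15 with an edgeR adjusted p of 0.0149. Cd79a, the locus that carries Cre, lay between 163 and 276 CPM in the 9 knockout libraries, against means of 505 CPM (SD 71.1) in the morning and 485 CPM (SD 71.4) in the evening in controls (n = 6 each). It did not separate by time in the knockout (log2 -0.03 ± 0.15 SE).

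The 9 knockout libraries held 14974828 to 18382101 counts, of which immunoglobulin genes took 53.6% to 59.4%. Prdm1, a defining factor of plasma cells, averaged 277 CPM in the morning and 271 CPM in the evening. Pairs of knockout libraries of 1 time differed by more than counting noise (chi-square per gene 40.9 to 159), so each counts as 1 replicate. ZT0 replicate 3 stood apart: it held Xist at 428 CPM together with Y-linked RNA at 35.3 CPM, the highest immunoglobulin share (59.4%) and the highest Fos (1421 CPM). ZT12 replicate 5 held Xist at 344 CPM with Y-linked RNA at 4.92 CPM, and its 19 epithelial markers summed to 903 CPM, against 71.4 to 217 CPM in the other 8 knockout libraries. Whether ZT0 replicate 3 holds RNA of more than 1 animal was not tested. Of the remaining libraries, 2 held Xist at 331 and 479 CPM with Y-linked RNA at 0, and 5 held Y-linked RNA at 156 to 186 CPM with Xist at 0.73 to 3.51 CPM, highest in ZT0 replicate 2. Both kinds occur at both times. ZT0 replicate 3 and ZT12 replicate 5 are called the doubted libraries below. The immunoglobulin share was 55.1% ± 2.91 at ZT0 (SD, n = 4) and 54.6% ± 0.952 at ZT12 (SD, n = 5), which differ by -0.45 percentage points (p = 0.881, exact permutation test over all splits, two-sided). Without ZT0 replicate 3 the difference was 1.01 percentage points. Of the other cell types, the sum of 12 T cell markers averaged 43.3 CPM in the morning (SD 7.44) and 34.4 CPM in the evening (SD 6.33; exact permutation p = 0.0952). Most of this sum came from Cd4 (206 to 483 counts per library) and Cd2 (97 to 343), while Cd3d, Cd3e and Cd3g held 0 to 27, and 5 of the 12 markers were higher at ZT12 and 7 lower. All 12 myeloid markers tested and 18 of 19 epithelial markers had positive differences, with sums of 77.9 and 91.9 CPM at ZT0 and of 100 and 280 CPM at ZT12 (exact permutation p = 0.397 and 0.333). No marker of the 5 lists of other cells was at 0 in all 9 libraries.

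At an adjusted p under 0.05, edgeR's quasi-likelihood test called 0 of the 20256 genes between ZT12 and ZT0 in the knockout (0%), with a smallest adjusted p of 0.169. At an unadjusted p under 0.05 there were 793 genes higher at ZT12 (3.91%) and 829 lower (4.09%), 1622 in all, where 5% of the genes tested would be 1012.8. In 247 genes every ZT12 library lay above every ZT0 library (1.22%), and in 286 every one lay below (1.41%). DESeq2, the tool used in the study's methods, called 47 of the 14725 genes to which it assigned an adjusted p (0.319%), 19 higher and 28 lower. All 47 had an edgeR p under 0.05, and 39 of them did not overlap between the times. These totals rest on ZT0 replicate 3: without it 1083 genes had an edgeR p under 0.05 and DESeq2 called 4, which were Cyp51, Fads1, Map2k1 and Nsdhl, all lower at ZT12. Without ZT12 replicate 5 the counts were 1357 and 29, and without both libraries 954 genes had an edgeR p under 0.05. DESeq2's count was 125 without ZT0 replicate 2, 14 without ZT0 replicate 1, and 27 and 22 without ZT12 replicates 1 and 4. In the values that follow, a p is edgeR's unadjusted p unless named otherwise, and it ranks genes without calling them.

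The genes named first are those with the smallest p among genes whose libraries did not overlap and whose mean was at least 5 CPM, leaving out immunoglobulin segments and genes known only by a Gm or Rik symbol. Lower in the evening came Jak3, the kinase that signals beneath cytokine receptors of the common gamma chain. Morning libraries held 46.1, 45.5, 59.5 and 47.2 CPM of it and evening libraries 26.3, 28.5, 32.8, 31.6 and 26.6 CPM. The highest evening library thus lay well below the lowest morning library, and the log2 difference was -0.76 ± 0.14 (SE; edgeR adjusted p = 0.169; DESeq2 adjusted p = 0.01). Il2rg encodes that common gamma chain, and it lay at 68.4, 54.7, 67.5 and 59.0 CPM at ZT0, then 37.4, 46.9, 44.5, 45.0 and 43.2 CPM at ZT12 (log2 -0.53 ± 0.11 SE). T cells also express Jak3 and Il2rg. The gate shown in the study for small intestinal plasma cells left out CD3+ and CD5+ cells. The T cell marker sum given above averaged higher in the morning and was highest, at 51.4 CPM, in ZT0 replicate 3, which had the most Jak3. ZT0 replicate 2 held 33.6 CPM of these markers with 45.5 CPM of Jak3, and ZT12 replicate 2 held 41.0 CPM with 28.5 CPM. The part of T cells in these differences was not tested. In control mice the differences were smaller, at log2 -0.18 ± 0.12 for Jak3 and -0.20 ± 0.10 for Il2rg (SE). The test of the difference between genotypes gave an unadjusted p of 0.00371 for Jak3 and 0.0388 for Il2rg, and neither passed edgeR's adjustment.

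In RNA of sorted cells in bulk, fewer cells with a transcript and less of it per cell cannot be told apart, here and in what follows. Fads1, the delta-5 fatty acid desaturase, was at 13.0, 16.0, 14.4 and 14.3 CPM at ZT0 and at 8.45, 7.48, 7.73, 6.63 and 12.6 CPM at ZT12. Only ZT12 replicate 5 came near the morning values, and without it the log2 difference moved from -0.75 to -0.94 and passed edgeR's adjustment (adjusted p = 0.00526). Relb, a subunit of non-canonical NF-kB, was at 69.6, 67.7, 75.4 and 55.1 CPM at ZT0 and at 48.8, 43.6, 44.3, 49.8 and 35.2 CPM at ZT12 (log2 -0.59 ± 0.13 SE). Coq8a, needed for coenzyme Q synthesis, differed by log2 -0.48 ± 0.11, and Slc9a7, a sodium/proton exchanger of the Golgi, by -0.64 ± 0.15 (SE). The remaining genes of this group, Nsdhl and Cyp51, belong to sterol synthesis and are described with it.

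Higher in the evening came Fkbp5, a co-chaperone of the glucocorticoid receptor that glucocorticoids induce. It lay at 11.8, 11.9, 11.9 and 17.6 CPM at ZT0 and at 26.9, 18.2, 28.6, 24.5 and 38.2 CPM at ZT12. The groups did not overlap, although ZT0 replicate 4 and ZT12 replicate 2 were close, and the log2 difference was 1.04 ± 0.24 (SE; DESeq2 adjusted p = 0.017). The rest of the glucocorticoid response list did not follow it: of 15 members 2 were higher and 2 lower at p under 0.05, with a median log2 difference of 0.05. Without ZT0 replicate 3 these counts were 1 and 0. Bcas3 lay at 6.54, 8.80, 4.34 and 5.97 CPM at ZT0 and at 14.7, 10.1, 10.7, 11.5 and 11.7 CPM at ZT12 (log2 0.87 ± 0.18 SE). Nfxl1 lay at 61.2, 59.4, 49.0 and 44.0 CPM at ZT0 and at 65.5, 71.1, 74.3, 83.2 and 68.2 CPM at ZT12 (log2 0.44 ± 0.11 SE). Both were thus higher in all evening libraries. Smaller differences of the same kind were measured for Ero1l, the oxidase that drives disulphide formation in the ER (0.44 ± 0.11), for C2cd2l, a lipid transfer protein at ER contact sites (0.58 ± 0.13), and for Tes, a focal adhesion protein (0.63 ± 0.16). Dedd2, a death effector domain protein, differed by 0.34 ± 0.09 and Lig4, the DNA ligase of end joining, by 0.65 ± 0.17 (log2 ± SE). Of these 16 genes, DESeq2 called all but Lig4.

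**Figure D1:**
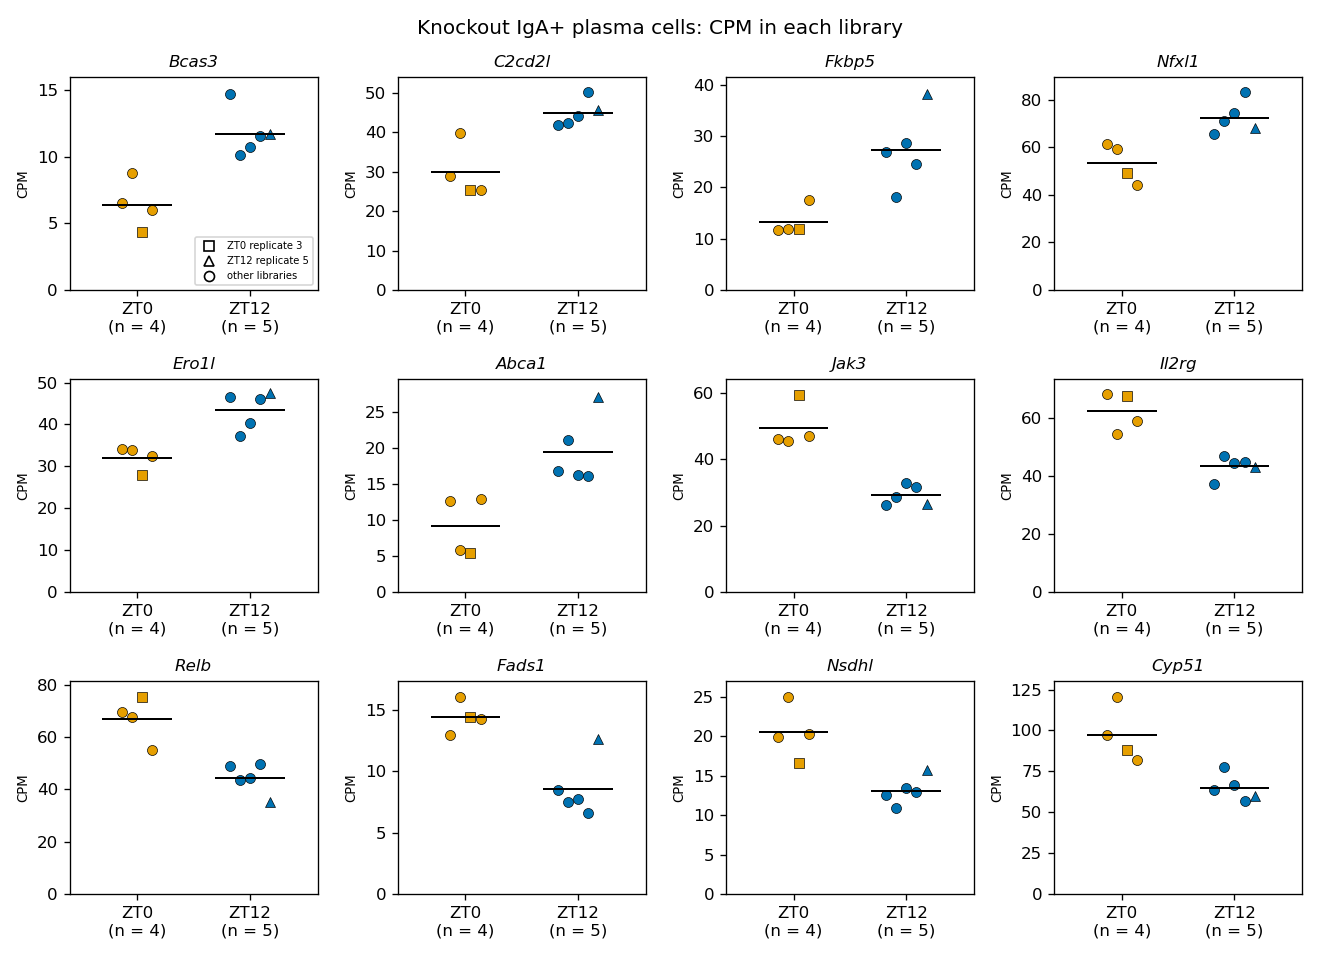
Levels of 12 genes in each knockout library, in CPM on axes that start at 0, with ZT0 (n = 4) on the left and ZT12 (n = 5) on the right of each panel. Each symbol is 1 library, bars are group means, squares mark ZT0 replicate 3 and triangles ZT12 replicate 5. In all 12 genes the libraries of the 2 times do not overlap, as in 533 of all genes tested.

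Sterol synthesis held the most members with a small p. The study also displayed cholesterol genes from these libraries, so the direction of this list is not independent evidence. Of its 26 genes, 14 were lower at ZT12 at p under 0.05 and 0 higher, set beside 4.09% and 3.91% of all genes. In all 23 of the 26 had a negative log2 difference, and the median was -0.33, against 0.01 over all genes tested. In 5 the libraries did not overlap, beside 1.41% of all genes in that direction. edgeR called 0 of them and DESeq2 called 2. Nsdhl, which takes part in removing the C4 methyl groups of sterols, lay at 19.95, 25.0, 16.7 and 20.3 CPM at ZT0 and at 12.5, 10.9, 13.5, 12.9 and 15.7 CPM at ZT12 (log2 -0.64 ± 0.14 SE). Cyp51, the lanosterol demethylase, lay at 97.3, 121, 88.3 and 82.1 CPM at ZT0 and at 63.6, 77.7, 66.5, 56.8 and 60.2 CPM at ZT12 (log2 -0.58 ± 0.13 SE). In both genes the highest evening library stayed below the lowest morning library, and DESeq2 gave each an adjusted p of 0.017.

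Idi1, the isomerase that supplies the activated isoprene unit, lay at 22.8, 33.8, 21.9 and 23.2 CPM at ZT0 and at 13.8, 16.4, 15.1, 17.4 and 14.9 CPM at ZT12 (log2 -0.71 ± 0.19 SE). Sc5d, the lathosterol desaturase, lay at 39.7, 51.7, 42.1 and 41.2 CPM at ZT0 and at 31.9, 39.6, 28.7, 27.9 and 28.1 CPM at ZT12 (log2 -0.48 ± 0.14 SE). ZT0 replicate 2 was the highest library for each of these 4 genes. Srebf2, which encodes the SREBP that drives the pathway, averaged 341 CPM in the morning (SD 28.3, n = 4) and 271 CPM in the evening (SD 19.3, n = 5), also without overlap (log2 -0.33 ± 0.11 SE). Further along the pathway Tm7sf2, a sterol reductase, differed by -0.80 ± 0.24, Hsd17b7 by -0.70 ± 0.24 and Msmo1, the C4 sterol oxidase, by -0.60 ± 0.22 (log2 ± SE). Scap, the escort of SREBP, lay on the other side of 0 at 0.27 ± 0.15 (SE), and its p was not under 0.05.

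The sterol count barely depended on either doubted library: 14 members were lower at p under 0.05 without ZT0 replicate 3, 13 without ZT12 replicate 5 and 13 without both. It was 8 without ZT0 replicate 2, 15 with Xist as a covariate and 13 with the epithelial markers as a covariate. Seen library by library, the median sterol gene lay 0.35 above the ZT0 mean in ZT0 replicate 2 and between 0.08 and 0.18 below it in the other morning libraries, on the log2(CPM + 0.5) scale. In the evening it lay between 0.13 and 0.48 below that mean. ZT12 replicate 2, the least shifted evening library, therefore fell among the morning libraries. In the order of the deposited columns it stands in the same stretch as ZT0 replicates 2 and 3. Whether these libraries were handled together was not tested.

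The promoters of 3 of these genes are shown because the genes differed together and SREBP and Bmal1 act through short promoter motifs. They run from 250 bases before to 50 after the RefSeq gene start in GRCm38.p6, 5′ to 3′ on the strand of the gene, with an E-box in capitals where the letters CACGTG occur.
Nsdhl (chrX:72918271-72918570, plus strand): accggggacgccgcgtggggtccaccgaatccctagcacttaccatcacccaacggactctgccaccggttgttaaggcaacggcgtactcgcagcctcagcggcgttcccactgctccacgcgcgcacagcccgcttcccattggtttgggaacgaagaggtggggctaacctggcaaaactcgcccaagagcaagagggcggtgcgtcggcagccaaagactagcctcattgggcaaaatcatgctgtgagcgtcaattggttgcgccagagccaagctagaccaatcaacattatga
Cyp51 (chr5:4104648-4104947, minus strand): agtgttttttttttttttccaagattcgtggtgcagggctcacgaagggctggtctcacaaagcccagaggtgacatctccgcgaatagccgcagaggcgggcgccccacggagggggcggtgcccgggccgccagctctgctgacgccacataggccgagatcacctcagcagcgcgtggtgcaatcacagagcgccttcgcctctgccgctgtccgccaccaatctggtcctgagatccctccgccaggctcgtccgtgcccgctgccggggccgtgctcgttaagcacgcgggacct
Sc5d (chr9:42264251-42264550, minus strand): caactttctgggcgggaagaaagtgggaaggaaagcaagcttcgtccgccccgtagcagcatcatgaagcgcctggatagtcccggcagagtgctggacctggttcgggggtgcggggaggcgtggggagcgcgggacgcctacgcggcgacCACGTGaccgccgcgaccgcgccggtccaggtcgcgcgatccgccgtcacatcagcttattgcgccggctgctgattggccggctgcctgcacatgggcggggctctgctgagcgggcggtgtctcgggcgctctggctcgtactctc
Of the 26 sterol synthesis genes, 19 had a promoter in the RefSeq table, and on either strand 1 of the 19 held the sterol regulatory element TCACNCCAC (5.26%), against 1.44% of all 27025 genes with a promoter. An E-box was in the promoters of 5 of the 19 genes (26.3%), Sc5d among them, against 8.09% of all genes. Nsdhl, Cyp51 and Idi1 held neither string in these windows. The promoter of Idi1 is not printed although its p was smaller than that of Sc5d, which holds an E-box and is printed instead. The strings are exact matches and are described only as letters.

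In fatty acid synthesis fewer members had a small p. Of 19 genes 3 were lower at p under 0.05 and 0 higher, beside 4.09% and 3.91% of all genes. The median log2 difference was -0.20, and the 3 genes were Fads1, Btd and Hsd17b12. The count was 5 without ZT0 replicate 3 or ZT12 replicate 2, and 6 without both doubted libraries, while the median was -0.10 without ZT0 replicate 2 and -0.12 without ZT12 replicate 4. Btd, the biotinidase that recycles the cofactor of carboxylases, lay at 36.1, 45.7, 41.6 and 40.4 CPM at ZT0 and at 28.4, 32.6, 30.3, 28.8 and 27.0 CPM at ZT12 (log2 -0.48 ± 0.11 SE; DESeq2 adjusted p = 0.0331). The 2 times did not overlap in any of the 3 genes, as in 1.41% of all genes in that direction. Among the 9 tested genes of sterol efflux and LXR response, 2 were higher at p under 0.05, beside 3.91% of all genes. One was Abca1, the cholesterol exporter, at 12.7, 5.8, 5.40 and 13.0 CPM at ZT0, then 16.9, 21.2, 16.3, 16.2 and 27.1 CPM at ZT12 (log2 1.08 ± 0.29 SE; DESeq2 adjusted p = 0.0403). The other was Mylip, which encodes the ligase that degrades the LDL receptor (log2 0.77 ± 0.29 SE). Abcg1, another exporter of the list, was below 1 CPM on average at both times.

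The controls were compared next, to ask which of their time-of-day differences remained without the intrinsic clock. edgeR called 350 genes between ZT12 and ZT0 in control mice (1.73%), 192 higher and 158 lower at ZT12. Of these, 65 (18.6%) also had p under 0.05 in the same direction in the knockout, against 956 of the 19906 genes not called in controls (4.80%). The share was 39 of 158 (24.7%) for genes lower at ZT12 and 26 of 192 (13.5%) for genes higher. For the genes lower in control evenings the median log2 difference was -0.57 in controls and -0.17 in the knockout. For those higher it was 0.67 in controls and 0.12 in the knockout. No mouse is shared between these comparisons, but both use the same estimate of spread per gene, made from all 21 libraries. A gene whose spread is estimated too low can therefore have a small p in both genotypes. The control calls numbered 198 without knockout ZT12 replicate 1. Over the 8164 genes with a mean of at least 5 CPM that encode no immunoglobulin, the differences had the same sign in 49% of genes. Across these genes the Spearman correlation was 0.03 and the Pearson correlation 0.19. Of the 1622 genes with p under 0.05 in the knockout, 1021 (62.9%) had the same sign in controls. Where p was under 0.05 in both genotypes, 290 genes had the same sign and 50 the opposite. Genes are not independent replicates. Without ZT0 replicate 3 the control fit called 478 genes and 98 of them (20.5%) met the rule in the knockout, so that share was no smaller without the doubted library. Without ZT0 replicate 4 it was 40 of 248, and over all single knockout libraries left out it ran from 14.8% to 25.3%. The control libraries moved it further, from 10.6% of 934 genes without control ZT12 replicate 1 to 51.6% of 31 genes without control ZT0 replicate 2. With the immunoglobulin share as a covariate edgeR called 0 control genes, so that no share could be given.

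Among the 65, by the same limits on level and symbol, the smallest p of genes lower in the evening belonged to Fads1, Nsdhl, Cyp51, Dpysl2 and Btd. Their control differences were -0.71 ± 0.13, -0.79 ± 0.12, -0.67 ± 0.11, -1.0 ± 0.17 and -0.37 ± 0.10 (log2 ± SE), beside -0.75 ± 0.15, -0.64 ± 0.14, -0.58 ± 0.13, -0.87 ± 0.19 and -0.48 ± 0.11 in the knockout. For none of the 5 was the unadjusted p of the difference between genotypes under 0.44. The 5 were chosen for a call in controls and a small p in the same direction in the knockout. That choice favours similar differences in both genotypes, so this p does not measure their likeness. Dpysl2, a microtubule-associated protein, lay at 19.9, 11.3, 18.4 and 17.3 CPM at ZT0 and at 10.7, 7.91, 9.89, 12.3 and 5.10 CPM at ZT12, with 1 pair of libraries overlapping. In the other direction came Fkbp5, Nfxl1, Emilin1, Luc7l2 and Dxo. Emilin1, an extracellular matrix glycoprotein, differed by 0.33 ± 0.10 in the knockout and 0.40 ± 0.09 in controls. Luc7l2, a splicing factor, differed by 0.33 ± 0.11 and 0.36 ± 0.09, and Dxo, a decapping enzyme, by 0.37 ± 0.12 and 0.49 ± 0.10 (log2 ± SE).

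**Figure D2:**
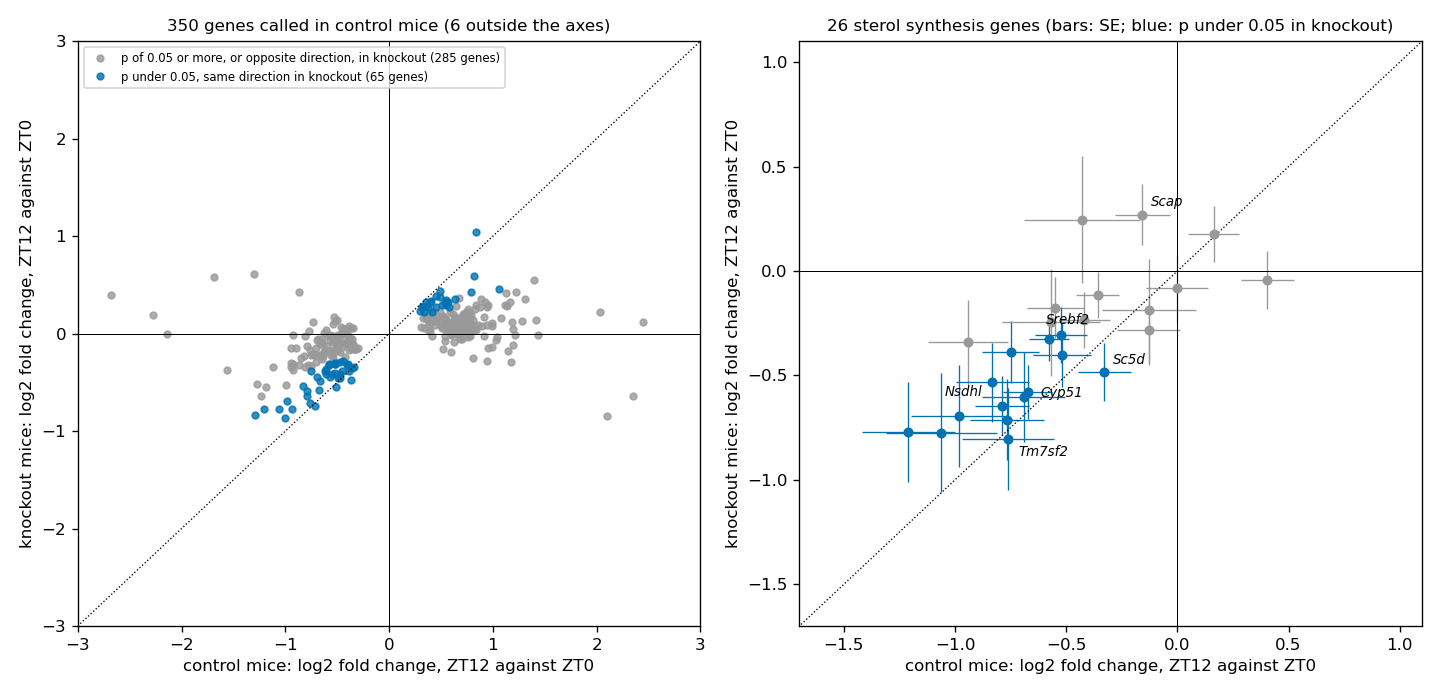
Log2 fold change of ZT12 against ZT0 in control mice (horizontal) and in knockout mice (vertical). Left, the 350 genes called in control mice, with the 65 genes of p under 0.05 and the same direction in the knockout in blue; right, the 26 sterol synthesis genes with standard errors, 14 of them in blue. Blue genes follow the dotted line of equality more closely than the grey ones, which spread around 0 in the knockout, and blue was assigned from the knockout p itself.

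Some lists had larger median differences in controls than in the knockout. Ribosomal protein genes had a median log2 difference of 0.64 in controls and 0.08 in the knockout, where 0 of 69 had p under 0.05 in either direction. The knockout median was 0.25 without ZT0 replicate 3, where 2 members were higher at p under 0.05, and 0.26 without both doubted libraries. It was at or just below 0 without ZT0 replicates 2 or 4 or ZT12 replicate 2, at -0.02 or nearer. Rpl4, the member with the smallest p, lay at 440, 390, 516 and 381 CPM at ZT0 and at 472, 576, 507, 479 and 487 CPM at ZT12, a log2 difference of 0.22 ± 0.13 against 0.59 ± 0.11 in controls (SE). At the level of single genes edgeR called 0 of 20256 genotype differences (0%), although 2191 had an unadjusted p under 0.05 (10.8%), and DESeq2 called 4 of 14334. Ribosomal protein genes made up 55 of those 2191, out of 69, and respiratory chain genes 16, out of 41. The control immunoglobulin share ran from 51.5% to 53.3% over the ZT0 libraries and from 53.3% to 63.6% over the ZT12 libraries. With this share as a covariate edgeR called 0 control genes, and its part in these lists was not tested. Cox7a2l, a respiratory chain factor, was higher at ZT12 by 0.46 ± 0.19 in the knockout and 1.06 ± 0.16 in controls (log2 ± SE), with unadjusted p = 0.0245 for the difference between genotypes. Rbm3, a cold-inducible RNA-binding protein, was higher by 0.29 ± 0.14 and 0.54 ± 0.12 (SE). Without ZT0 replicates 1 or 4 or ZT12 replicate 2, neither had p under 0.05 in the knockout.

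The clock genes themselves showed little in the knockout. Of the 13 core clock genes, 1 was higher at ZT12 at p under 0.05 and 0 lower, and the median log2 difference was -0.01 against 0.30 in controls. The exception was Nr1d1, which encodes the repressor REV-ERB alpha. It was low, at 0.27, 0.38, 0.73 and 0.45 CPM at ZT0, then 1.23, 1.58, 0.54, 0.45 and 3.57 CPM at ZT12, which are 5 to 11 counts and 7 to 61 counts per library. ZT12 replicates 3 and 4 lay within the morning range, and the log2 difference was 1.69 ± 0.55 (SE). This difference was 1.14 with the epithelial markers as a covariate, and it was also smaller without ZT12 replicate 5. At ZT12, Nr1d1 was highest in replicates 5 and 2, which held the most epithelial markers (903 and 217 CPM). It was lowest in replicate 4, which held the least (71.4 CPM). Replicates 1 and 3 held similar marker sums (103 and 105 CPM) with 1.23 and 0.54 CPM of Nr1d1. The part of epithelial cells in the Nr1d1 difference was not tested. In controls Nr1d1 averaged 2.18 CPM in the morning (SD 0.66) and 6.26 CPM in the evening (SD 3.21, n = 6 each). Per2 and Cry1 differed by 0.10 ± 0.27 and 0.12 ± 0.13 in the knockout (log2 ± SE). Clock differed by 0.29 ± 0.16, and Arntl2, with 0 to 16 counts per library, by -2.36 ± 1.25. Of 9 clock output genes tested 1 was lower, Dbp, a transcription factor driven by Bmal1, at 8.96, 5.74, 10.8 and 7.90 CPM at ZT0, then 6.78, 4.38, 5.38, 5.54 and 2.70 CPM at ZT12. Its values overlapped, with a log2 difference of -0.75 ± 0.30 (SE), and without ZT0 replicate 3 or without ZT12 replicate 5 it no longer had p under 0.05. Bhlhe41 and Ciart differed by -0.22 ± 0.13 and 0.51 ± 0.37 (SE).

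Of 15 genes of NF-kB signalling and feedback, 5 were lower at ZT12 at p under 0.05 and 0 higher, with a median log2 difference of -0.27. Over all genes 4.09% were lower and 3.91% higher, for this list and the next ones. edgeR called 0 of them and DESeq2 called 3, namely Relb, Nfkb2 and Icam1. Nfkb2, which encodes the partner of Relb, was at 200.3 CPM in the morning (SD 20.97, n = 4) and 143 CPM in the evening (SD 20.3, n = 5). The other lower members were Icam1 (log2 -0.89 ± 0.22 SE), Traf1 (-0.54 ± 0.16 SE) and Birc3 (-0.33 ± 0.11 SE). Nfkb2 did not overlap between the times, as in 1.41% of all genes in that direction. Leaving out any single knockout library left 5 to 8 members lower (8 without ZT12 replicate 4), and 4 were lower without both doubted libraries, where the median was -0.13. Of 17 immediate early genes, 4 were lower at p under 0.05, namely Fos, Junb, Egr1 and Nr4a1, and Myc was higher. Their log2 differences were negative in 12 and positive in 5, with a median of -0.39, and in controls the median was 0.41. Fos, at 505, 334, 1421 and 250 CPM at ZT0, then 178, 547, 187, 218 and 207 CPM at ZT12, was highest in ZT0 replicate 3. Without that library the list median was -0.11 and 1 member was lower. The count was also 1 without ZT12 replicates 3, 4 or 5, 0 without ZT12 replicate 1, and 9 without ZT0 replicate 4 or ZT12 replicate 2. Nr4a1, a receptor gene induced by antigen receptor signals, differed by -0.50 ± 0.21 with or without that library (SE with it). Interferon-stimulated genes had 4 of 20 members lower, Xaf1 first (log2 -0.63 ± 0.26 SE). The count was 1 without ZT0 replicates 1 or 3 and 2 without ZT12 replicates 1 or 2.

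The unfolded protein response expands the folding and disposal capacity of the ER. Of 28 genes of this list 8 were higher at ZT12 at p under 0.05 and 0 lower, beside 3.91% and 4.09% of all genes. None was called by edgeR or DESeq2, 24 had a positive log2 difference, and the median was 0.19 against 0.05 in controls. Pdia4, a protein disulphide isomerase, lay at 596, 963, 541 and 688 CPM at ZT0 and at 864, 1059, 993, 956 and 908 CPM at ZT12 (log2 0.46 ± 0.15 SE). Only ZT0 replicate 2 reached the evening range. Without that library 17 members were higher, while without ZT0 replicate 3 there was 1, without ZT0 replicates 1 or 4 there were 2 and without ZT12 replicate 2 there were 3. The other members with p under 0.05 were Syvn1, Sel1l, Derl3, Edem1, Sdf2l1, Pdia3 and Dnajb9, with log2 differences from 0.24 to 0.38, and no member was without overlap. None of 17 genes of the ATF4 response had p under 0.05, with Mthfd2 first (0.26 ± 0.13 SE). Without ZT0 replicate 2 there were 4 members higher, without ZT12 replicate 2 there was 1, and with the epithelial markers as a covariate there were 2. Slc7a5, the light chain of the CD98 amino acid transporter, lay at 122, 170, 111 and 119 CPM at ZT0 and at 188, 158, 191, 222 and 186 CPM at ZT12 (log2 0.54 ± 0.15 SE), the only 1 of 15 amino acid transporters with p under 0.05.

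Heat shock genes had the highest median of the 22 pathway lists, 0.83, where the epithelial markers had 2.21. At p under 0.05, 8 of 18 members were higher and 0 lower, beside 3.91% and 4.09% of all genes. The libraries of 1 time, however, differed more than the times did. Hspa1a, the inducible HSP70, lay at 2.97, 19.2, 54.6 and 3.93 CPM at ZT0 and at 427, 9.25, 18.5, 295 and 49.9 CPM at ZT12. ZT12 replicates 1 and 4 carried the high values, the other 3 evening libraries lay within the morning range, and leaving out either of those replicates left 0 members with p under 0.05. Leaving out ZT0 replicate 1 also left 0, ZT0 replicate 4 left 1, ZT0 replicate 2 left 3 and ZT12 replicate 2 left 12. Hspd1, a mitochondrial chaperonin and the member with the smallest p, differed by 0.99 ± 0.40 (SE). The heat shock element string GAANNTTC was in the promoters of 10 of the 15 listed genes with a promoter (66.7%), against 9.04% of all genes.

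**Figure D3:**
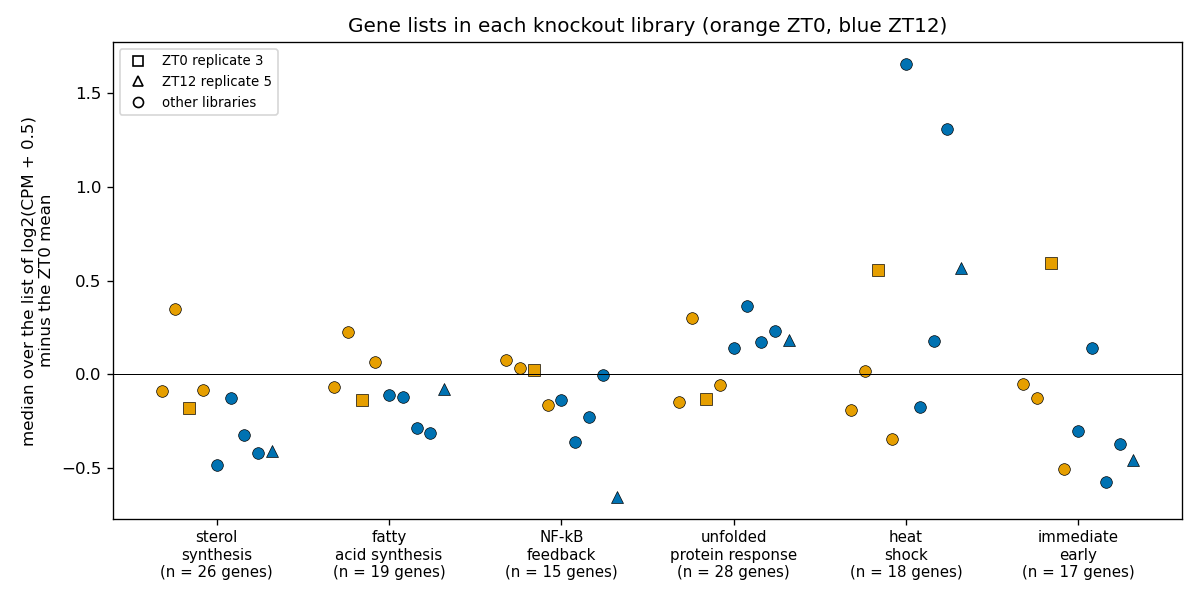
Median of 6 gene lists in each knockout library, as log2(CPM + 0.5) minus the mean over the ZT0 libraries, with ZT0 in orange, ZT12 in blue, a square for ZT0 replicate 3 and a triangle for ZT12 replicate 5. Heat shock genes reach 1.65 and 1.31 in ZT12 replicates 1 and 4, and in each list at least 1 evening library lies within the morning range.

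**Figure D4:**
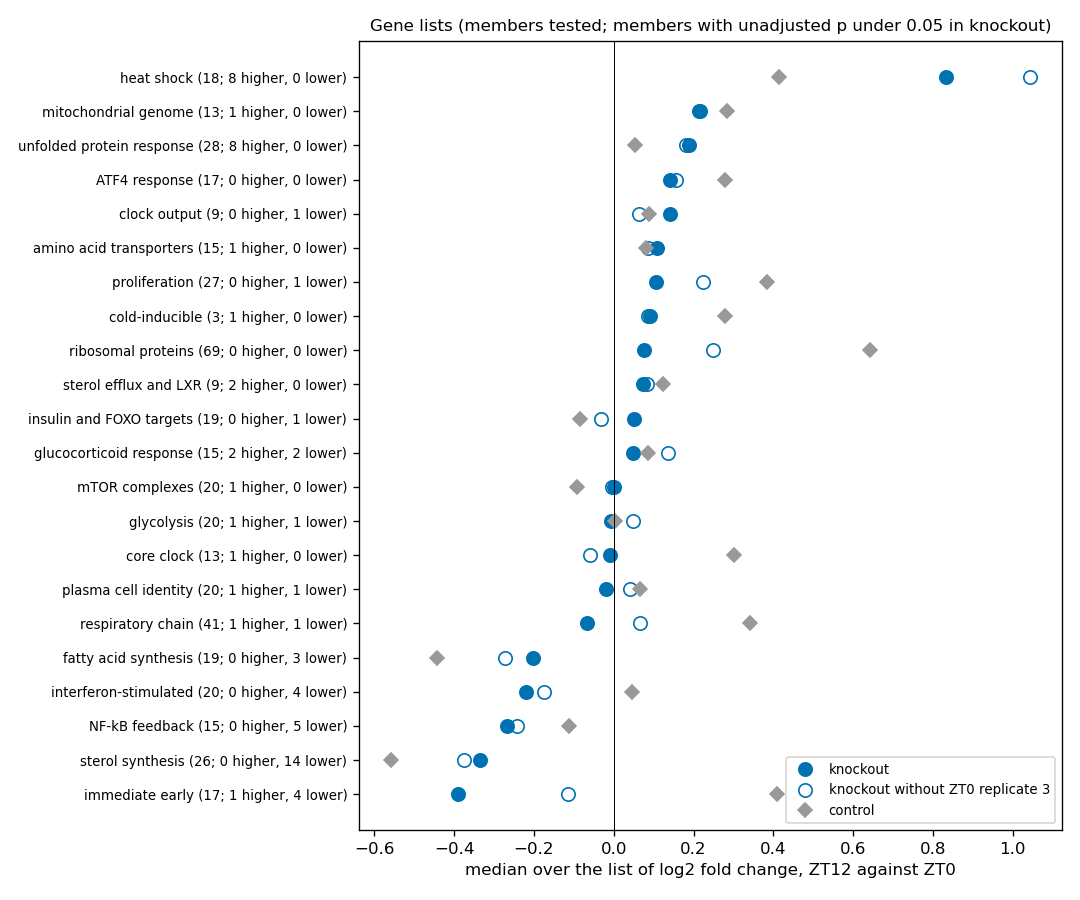
Median log2 fold change of ZT12 against ZT0 over each of 22 lists, in the knockout (filled circles), in the knockout without ZT0 replicate 3 (open circles) and in controls (diamonds), with the members tested and those with p under 0.05 in brackets. Sterol synthesis stays below 0 in all 3, while immediate early genes lie below 0 in the knockout and above it in controls.

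Other metabolic and identity lists held few members with a small p. Of all genes, 3.91% were higher and 4.09% lower at p under 0.05. A single member per direction in lists of 13 to 27 genes lies close to those shares. In glycolysis 1 of 20 was higher, Gpi1, and 1 lower, Aldoc, an aldolase at 8.74, 13.2, 10.7 and 8.95 CPM at ZT0, then 5.61, 7.12, 6.46, 5.09 and 2.93 CPM at ZT12 (log2 -0.93 ± 0.24 SE). The times did not overlap in Aldoc. Of 20 genes of the mTOR complexes and their regulators 1 was higher, Deptor, an mTOR inhibitor, at 1.81, 2.81, 0.40 and 1.84 CPM at ZT0, then 3.27, 3.71, 3.77, 3.35 and 3.87 CPM at ZT12 (log2 1.06 ± 0.34 SE). In the plasma cell identity list of 20 genes, Itgb7, the beta chain of the gut-homing integrin, was higher (log2 0.36 ± 0.13 SE) and Irf4 lower (-0.36 ± 0.15 SE), and Xbp1 and Prdm1 differed by -0.04 ± 0.12 and -0.03 ± 0.12 (log2 ± SE). Without ZT0 replicate 3 neither Itgb7 nor Irf4 had p under 0.05, and Irf4 did not without ZT12 replicate 1. Of 27 proliferation genes Tk1, the thymidine kinase of S phase, was the 1 with p under 0.05, lower at ZT12 (log2 -0.62 ± 0.15 SE; DESeq2 adjusted p = 0.0424). The list did not follow it: 18 members had positive and 9 negative differences, with a median of 0.11, against 0.38 in controls. The knockout median was -0.12 without ZT12 replicate 5. In the mitochondrial genome 12 of 13 genes had positive differences and mt-Nd5 had p under 0.05 (0.32 ± 0.15 SE), and the list median of 0.21 compares with 0.29 in controls. No gene of this list had p under 0.05 without ZT0 replicates 1 or 3 or ZT12 replicates 1, 3 or 4, and the median was 0.09 without ZT0 replicate 1.

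The genes with the smallest p for a genotype difference, among those with p under 0.05 in the knockout and the same limits on level and symbol, went opposite ways in the genotypes. That choice favours opposite signs, so the opposite directions are not a separate result. Klf2, a FOXO target of lymphocyte trafficking, lay at 136, 113, 269 and 157 CPM at ZT0 and at 116, 98.1, 130, 116 and 124 CPM at ZT12 in the knockout. Its log2 difference was -0.53 ± 0.18 there and 0.40 ± 0.15 in controls (SE), and it was -0.22 in the knockout without ZT0 replicate 3. Ndor1, a flavoprotein reductase, differed by 0.29 ± 0.14 in the knockout and -0.44 ± 0.12 in controls, and Tpcn1, a channel of endolysosomes, by 0.31 ± 0.12 and -0.24 ± 0.10 (log2 ± SE). Kin, a DNA and RNA binding protein, differed by -0.45 ± 0.14 and 0.26 ± 0.12, and Tcirg1, a subunit of the vacuolar proton pump, by -0.26 ± 0.11 and 0.22 ± 0.09 (log2 ± SE). The adjusted p of each of these genotype differences was 0.442, and the smallest over all genes was 0.138.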

How the data were processed

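RNA of IgA+ PCs sorted from the small intestine was sequenced as poly-A RNA by a commercial provider, and the authors deposited raw read counts per gene, whole numbers without normalization. The aligner, counter, genome build and strand setting are not given in the sources used here. Of the genes, 53620 matched the GENCODE M21 annotation of GRCm38, 52056 of them at the same coordinates. Where genes overlap, lie antisense to each other or are near-identical copies, their counts are therefore uncertain.

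Genes summing to 10 or more over the 21 libraries were kept. With R 4.3.3, edgeR 4.0.16 fitted the means of 4 groups with TMM factors and robust quasi-likelihood, so that all libraries share 1 estimate of the spread. Contrasts were ZT12 against ZT0 in each genotype and their difference. Benjamini-Hochberg adjustment ran over all genes tested, with a threshold of 0.05. DESeq2 1.42.0, limma 3.58.1 (voom) and the other alternatives are given in the closing section. The steps were tested on simulated data. The p-values measure the spread between libraries, described in the study as individual animals, although ZT0 replicate 3 of the knockout held both Xist and Y-linked RNA, and the precision of low genes is limited by depth, as in 5 to 61 counts of Nr1d1.

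The samples, the gene lists and the tests were chosen with earlier results of these data known. Genes were named by a rule: Arntl and Cd79a, the 8 smallest p per direction among genes at 5 CPM or more whose libraries did not overlap (no immunoglobulin segments, Gm or Rik symbols), up to 4 members per list by p, the 5 smallest knockout p per direction among genes called in controls, and the 5 smallest p for a genotype difference among genes with p under 0.05 in the knockout, with the same limits on level and symbol in both. Sterol, NF-kB, unfolded protein response and other list members beyond these, Map2k1, Fos, Xist and the Y-linked genes were chosen after their values were seen.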

Additional observations from a re-analysis of the deposited data

Results flagged for a closer look

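In 116 tests for a library far from the others of its group, over the named genes and the library measures, 8 were far enough to be listed, where chance lists about 1 in 20. Of these, 3 are measures of ZT0 replicate 3: its immunoglobulin share of 59.4% (next 53.7%), its Jak3 level of 59.5 CPM (next 47.2) and its Tpcn1 level of 50.3 CPM, the lowest of its group (next 60.1). The epithelial marker sum of ZT12 replicate 5 was 903 CPM (next 217). In the other ZT0 libraries Fkbp5 was highest in replicate 4 at 17.6 CPM (next 11.9), Idi1 highest in replicate 2 at 33.8 CPM (next 23.2), Luc7l2 highest in replicate 1 at 226 CPM (next 203) and Tcirg1 lowest in replicate 2 at 83.9 CPM (next 102).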

How the results depend on the processing

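Genes called in knockout mice numbered 0 with edgeR, 47 with DESeq2, 52 with DESeq2 on the knockout libraries alone, 2 with edgeR on those libraries alone and 1 without a count filter, with the immunoglobulin share as a covariate or without both libraries that hold Xist and Y-linked counts. They numbered 0 to 1 as single libraries were left out. At an unadjusted p under 0.05 the knockout gave 954 genes without both those libraries and 1083 (without ZT0 replicate 3) to 1911 with 1 library left out. DESeq2 called 1 gene at a threshold of 0.01 and 4 to 125 with 1 knockout library left out.

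Genes called in control mice numbered 350 with edgeR, 1052 with DESeq2, 233 with limma-voom, 183 with the replicate block, 0 with the immunoglobulin share and 141 with the epithelial markers as a covariate, 14 and 734 at thresholds of 0.01 and 0.1, and 31 to 934 with 1 library left out. Those also met in the knockout numbered 65 with edgeR, 150 with DESeq2, 40 with the replicate block, 0 and 37 with those covariates, 10 and 102 at those thresholds, and 16 (without control ZT0 replicate 2) to 99 (without control ZT12 replicate 1). The interaction gave 4 genes with DESeq2, 1 with the length trend removed and 0 to 1 with 1 library left out. Same-numbered knockout libraries correlated at 0.261, -0.102, -0.127 and 0.194, so replicate numbers gave no consistent pairing. Unlike-numbered pairs ran from -0.378 to 0.304. The deposited columns run in stretches that each hold both genotypes and both times. ZT12 replicate 2 shares a stretch with ZT0 replicates 2 and 3, with which it correlated at -0.102 and 0.304. The labels name no batch, and what these stretches stand for was not tested.

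The difference in immunoglobulin share ran from -0.95 to 1.01 percentage points with 1 library left out, reversing only without ZT0 replicate 3. Cd79a changed sign, to 0.016 with the epithelial covariate and 0.053 without both doubted libraries, and ran from -0.16 to 0.10 with 1 library left out. The cause of these sign changes was not tested. The other 50 named genes kept their direction in every alternative run. Most were named for a small p, and some for libraries without overlap, in these same data, so the choice itself favoured a kept direction. Motif counts of the 5 lists were the same on the given strand alone, where 0.625% of all genes held the sterol element. Leaving out both doubted libraries, and DESeq2 at 0.01 or with libraries left out, were chosen after seeing the data.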
